A study of Saccharomyces cerevisiae with 6 samples.

Results

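Glycolysis, fermentation and gluconeogenesis are run in budding yeast by a small set of enzymes whose genes lie on nearly every chromosome. The 34 genes examined here encode the enzymes that phosphorylate glucose, split it into pyruvate, turn pyruvate into ethanol or acetate, and run the path back to sugar. Each gene was placed by its midpoint in a 10 kb bin of a genome-wide Hi-C map. They fell into 33 bins, since ALD2 and ALD3 share a bin, out of 1216 nuclear bins and 6002 nuclear protein-coding genes. The genes were taken as 3 classes: 15 strongly expressed glycolytic genes in 15 bins, 13 other members in 13 bins, and 6 glucose-repressed genes in 5 bins (ADH2, PCK1, FBP1, ALD2, ALD3 and PDC6). These class names are background knowledge of the genes. No RNA level was used here, and the carbon source of the cultures is not given in the sources used here.

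In yeast the glycolytic genes are among the most highly transcribed genes on glucose. They are driven largely by the activators Rap1, Gcr1 and Gcr2, while glucose keeps genes such as ADH2, FBP1 and PCK1 off through the repressor Mig1 and the lack of active Adr1 and Cat8. Yeast chromosomes are held together at their centromeres on one side of the nucleus, and chromosome ends gather at the nuclear envelope. How far a gene lies from its centromere and from its chromosome end is therefore known to set much of its contact with other chromosomes. Whether genes of one pathway also meet more often than their positions alone would give is the question that the maps allow to be put to these loci.

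The maps come from 1 group, the haploid MATa strain yMD291 grown in synthetic medium lacking methionine, with 2 replicate maps. The study's methods call its sequencing replicates biological, without saying how the cultures were separated. Both replicates carry tor1-1, fpr::NAT and bar1, the marker alleles can1-100, ura3-1, trp1-1, leu2-3,112, ade2-1 and his3-11,15, a tetR-mCherry and LacI-GFP construct under the REV1 promoter at HIS3, a further LacI and tetR construct at ADE2, and LacO and TetO arrays on chromosome XV at 497047 and 834487. The member bin closest to an array was that of PYK2, 150 kb from the TetO array. Maps of 2 of the 6 described samples were used. The control and YBP2 strains, in both estradiol states, are not covered.

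Replicate 1 held 3751691 contacts between nuclear bins and replicate 2 held 3511728, of which 1004871 and 931315 joined different chromosomes. The 2 maps differed by more than sampling noise, with a chi-square over the totals of 1086 bins of 2.26 per degree of freedom. After a filter on bins with few partners, 1086 bins were kept, among them all 33 member bins. The 544303 kept pairs between chromosomes averaged 3.16 contacts over both maps, so counting error limits every single pair. Values below are observed over expected contact (O/E). Between chromosomes the expectation is the mean of all kept pairs in the same classes of distance to the centromere and to the chromosome end, so that an O/E of 1 is the level of all pairs lying at like positions. Every ± is the SD over the 2 maps (n = 2), and maps of 1 group allow no test between groups of cells.

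The glycolytic genes were spread over 11 chromosomes. Of the enzymes that act first, hexokinase 2 (HXK2) lay in the bin chrVII:20001-30000 of the sacCer3 build, phosphoglucose isomerase (PGI1) in chrII:610001-620000, and the 2 subunits of phosphofructokinase in chrVII:970001-980000 (PFK1) and chrXIII:670001-680000 (PFK2). Aldolase (FBA1) lay in chrXI:320001-330000 and triose phosphate isomerase (TPI1) in chrIV:550001-560000. The glyceraldehyde 3-phosphate dehydrogenases TDH2 and TDH3 lay in chrX:450001-460000 and chrVII:880001-890000. Of the enzymes that follow, phosphoglycerate kinase (PGK1) lay in chrIII:130001-140000, phosphoglycerate mutase (GPM1) in chrXI:160001-170000, the enolases ENO1 and ENO2 in chrVII:1000001-1010000 and chrVIII:450001-460000, and the main pyruvate kinase CDC19 in chrI:70001-80000. The main pyruvate decarboxylase PDC1 lay in chrXII:230001-240000, and ADH1, which makes ethanol from acetaldehyde, in chrXV:160001-170000.

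The other members lay on 10 chromosomes. Hexokinase 1 (HXK1) was in chrVI:250001-260000, glucokinase (GLK1) in chrIII:50001-60000, the minor dehydrogenase TDH1 in chrX:330001-340000, and the minor pyruvate kinase PYK2 in chrXV:980001-990000. Pyruvate decarboxylase PDC5 was in chrXII:410001-420000, and the alcohol dehydrogenases ADH3, ADH4 and ADH5 were in chrXIII:430001-440000, chrVII:10001-20000 and chrII:530001-540000. The aldehyde dehydrogenases ALD4, ALD5 and ALD6 were in chrXV:1040001-1050000, chrV:300001-310000 and chrXVI:430001-440000. The pyruvate carboxylases PYC1 and PYC2 were in chrVII:380001-390000 and chrII:660001-670000. Of the repressed genes, PDC6 was in chrVII:650001-660000, the ethanol-consuming dehydrogenase ADH2 in chrXIII:870001-880000, the aldehyde dehydrogenase pair ALD2 and ALD3 in chrXIII:600001-610000, phosphoenolpyruvate carboxykinase (PCK1) in chrXI:630001-640000, and fructose 1,6-bisphosphatase (FBP1) in chrXII:870001-880000. ADH1, ALD3, ALD4 and PYC2 reach over the edge into the bin before their own.

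Distances to the centromere overlapped between the classes. They ran from 18.6 kb (TDH2) to 508 kb (ENO1) with a median of 275 kb for glycolytic bins, from 158 to 724 kb with a median of 337 kb for repressed bins, and over all kept bins the median was 223 kb. The number of DpnII sites, which sets how many fragments a bin can give, had a median of 27 in glycolytic bins, 29 in other members and 33 in repressed bins, against 30 over all kept bins. By median, glycolytic bins and other members had a larger part of their balanced signal between chromosomes than all kept bins. This part was 28.5% to 43.2% over the 15 glycolytic bins with a median of 34.9%. Over the 13 bins of other members it was 21.9% to 38.0% with a median of 34.2%. It was 26.3% to 35.7% over the 5 repressed bins with a median of 30.4%, and it had a median of 31.8% over all kept bins. PDC1 (43.9 and 42.6% in replicates 1 and 2), TDH2 (42.9 and 42.8%) and CDC19 (42.1 and 41.8%) were the highest, and PDC5, on the same arm as PDC1, was the lowest member (21.9 and 21.9%).

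Contacts among all members were near the level of all pairs. The 487 pairs of member bins on different chromosomes had a mean O/E of 1.10 (replicate 1) and 1.09 (replicate 2), with a median over pairs of 0.98 against 0.91 over all kept pairs. In counts, 1820 contacts stood against 1673 expected. Of these pairs, 122 were above 1 in both maps (25.1%, against 20.4% of all kept pairs) and 149 were below 1 in both (30.6%, against 33.7%). At least 2-fold over expected in both maps were 18 pairs (3.70%, against 2.59%), and 47 pairs had no contact in either map (9.65%, against 11.5%). No member pair passed the exact one-sided Poisson test after Benjamini-Hochberg adjustment over all 544303 pairs, where 222 pairs (0.0408%) did. At an unadjusted p under 0.05 there were 38 member pairs (7.80%), against 4.3% of all pairs. The lowest adjusted p of a member pair was 0.333, for ENO2 with PDC1. At the median expectation of member pairs, 3.27 contacts, a pair needed 14 contacts to pass, which is 4.28-fold, so a smaller excess at a single pair was not detectable at this depth.

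**Figure D1:**
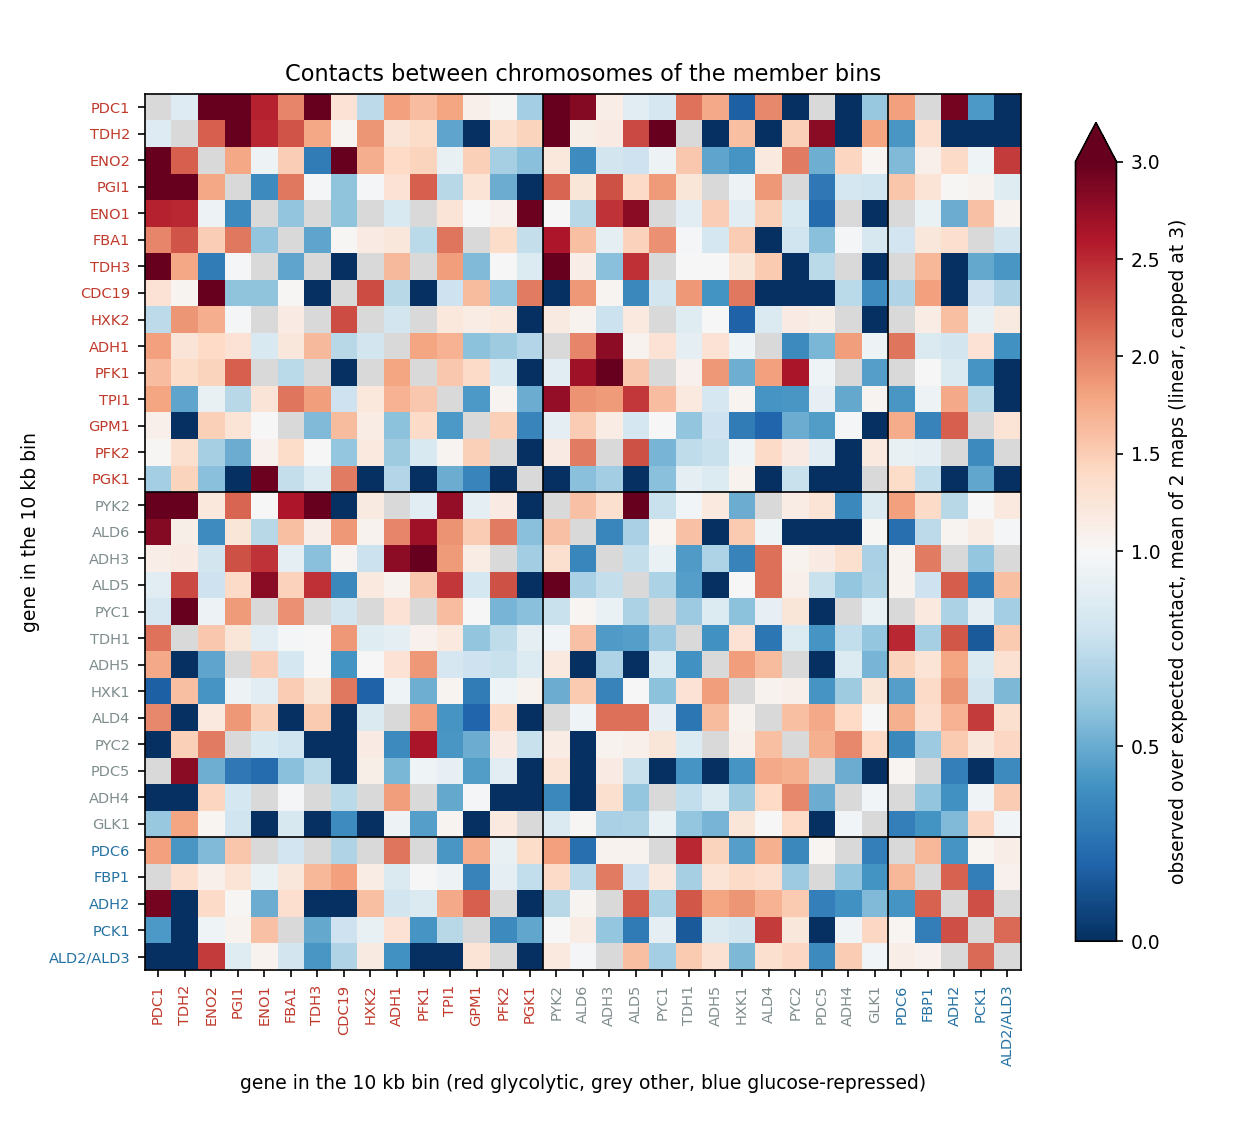
Mean O/E over 2 maps of every pair of member bins on different chromosomes, on a linear colour scale capped at 3, with glycolytic genes in red, other members in grey and glucose-repressed genes in blue, each class ordered by mean contact with glycolytic bins. Grey cells are pairs on the same chromosome, dark red cells reach 3 or more, and PDC1 and TDH2, at the top, average 1.94 and 1.68 with glycolytic bins.

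Among the classes, pairs of glycolytic bins were above the level of all pairs in both maps. The 98 pairs had a mean O/E of 1.30 (replicate 1) and 1.28 (replicate 2) (1.29 ± 0.0194) and a median of 1.13, with 406 contacts against 332 expected (ratio 1.22, exact Poisson 95% interval 1.11 to 1.35, counting error only). Above 1 in both maps were 30 pairs (30.6%), and 6 pairs were at least 2-fold over expected in both (6.12%). Pairs of glycolytic with other members had 1.12 ± 0.0406 over 179 pairs. Pairs of glycolytic with repressed bins had 0.78 and 1.06 in the 2 maps over 66 pairs, on both sides of 1, with 225 contacts against 227 expected. The 9 pairs of repressed bins had 1.20 and 1.52, with 44 contacts against 31.9 expected (ratio 1.38, interval 1.00 to 1.85). Pairs of repressed with other members had 1.17 and 0.99 over 60 pairs, and the 75 pairs among other members had 0.92 and 0.93. Whether the classes differ from one another was not tested.

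The glycolytic value moved with the way the maps were balanced. The deposited balance gives every bin the same total over contacts within and between chromosomes, so a bin with a larger part between chromosomes has higher O/E with bins of all kinds. Glycolytic bins had a mean O/E of 1.09 (replicate 1) and 1.10 (replicate 2) with all kept bins of other chromosomes, and 12 of 15 were above 1 in both maps (80%). Repressed bins had 1.01 in each map, and 3 of 5 were above 1 in both (60%). Other members had 1.01 and 1.02, and 7 of 13 were above 1 in both (53.8%). Of all kept bins, 41.9% were above 1 in both. When the whole contacts between chromosomes were balanced alone, which sets every bin to the same total between chromosomes, the 98 glycolytic pairs had 1.06 in replicate 1 and 1.04 in replicate 2 with a median of 0.98 (all pairs 0.92). In that balance 26 of them (26.5%) were above 1 in both maps, against 20.3% of all pairs. An unadjusted p under 0.05 was found for 8 (8.16%), against 3.91%. At least 2-fold over expected in both maps were 2 (2.04%), against 2.39% of all pairs. Pairs of glycolytic with repressed bins had 0.69 and 0.95 there, pairs of repressed bins had 1.20 and 1.50, and pairs among other members had 0.88 and 0.87. All 487 member pairs together had 0.96 and 0.97.

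**Figure D2:**
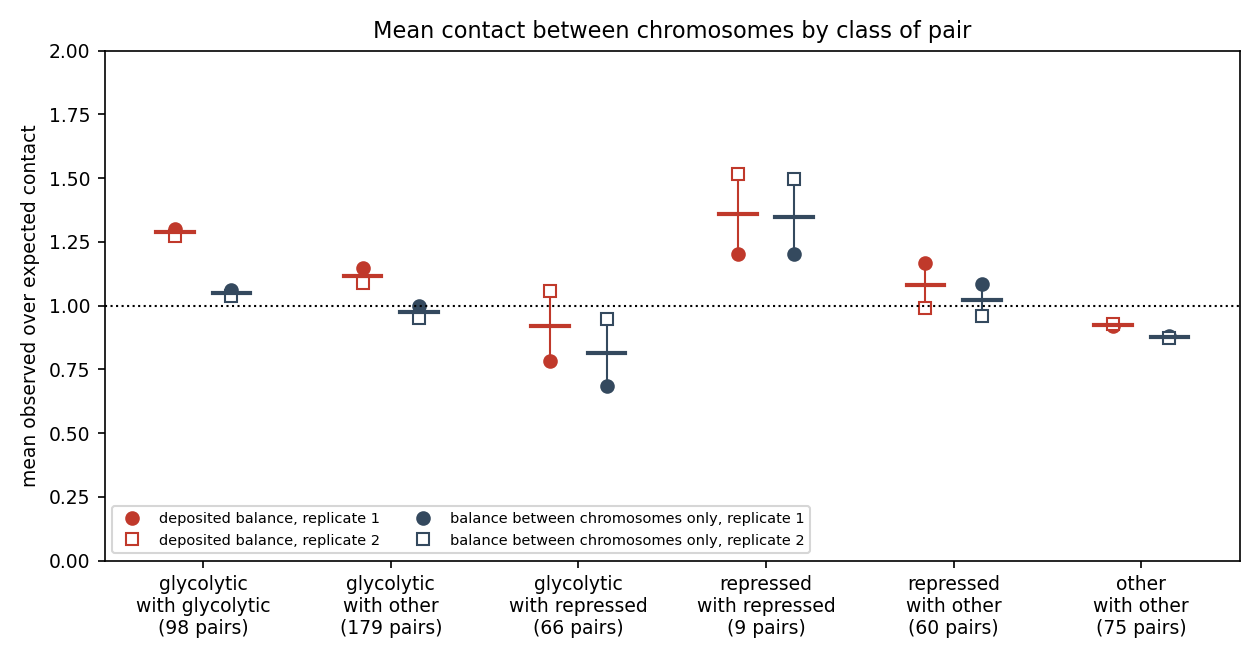
Mean O/E between chromosomes for each class of pair, in the deposited balance (red) and in a balance of contacts between chromosomes only (dark), with replicate 1 as a filled circle, replicate 2 as an open square and their mean as a bar. The dotted line is the level of all pairs. Glycolytic pairs lie at 1.30 and 1.28 in the deposited balance and at 1.06 and 1.04 in the other.

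The highest glycolytic pairs rested on few contacts. PGI1 with TDH2 reached 7.59 (replicate 1) and 2.65 (replicate 2) on 4 contacts against 0.773 expected. CDC19 with ENO2 had 2.08 and 6.50, from 8 contacts against 1.88 expected. ENO2 with PDC1 had 3.44 and 4.63, from 9 contacts against 2.24 expected. All of these lay above 1 in both maps, and the maps differed most for PGI1 with TDH2. TDH3 with PDC1 had 3.81 and 4.24, from 6 contacts against 1.49 expected, and PGI1 with PDC1 had 1.98 and 5.27, from 7 contacts against 1.96 expected. Of these 5 pairs, 3 share the PDC1 bin, which had an O/E of 1.49 ± 0.0104 with all kept bins. In the balance between chromosomes only, the 5 pairs had 3.96, 3.03, 2.60, 3.07 and 2.36 in this order.

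At the low end, 7 glycolytic pairs had no contact in either map (7.14%, against 11.5% of all kept pairs). By the largest expectation among them these were PGK1 with HXK2 (1.91 expected), TDH2 with GPM1 (1.52 expected) and CDC19 with PFK1 (1.49 expected). A count of 0 at such an expectation allows O/E of up to 1.93, 2.43 and 2.47 (exact Poisson 95% upper bounds), so these pairs were not distinguishable from 1. The bins of PGK1 and TDH2 lie 20.6 and 18.6 kb from their centromeres, where few contacts are expected with loci far out on an arm. Over the 98 glycolytic pairs the O/E of the 2 maps had a Pearson r of 0.27, and over all 544303 pairs 0.19. These are descriptions across pairs, which share bins and are not independent.

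The highest pairs of the other classes rested on 3 to 17 contacts. Glycolytic with other members was led by PDC1 with PYK2 at 7.37 and 1.15 (8 contacts against 1.82 expected), TDH2 with PYK2 at 5.11 and 2.92 (3 against 0.734) and TDH2 with PYC1 at 2.73 and 4.32 (10 against 2.85). PYK2 was thus in 2 of the 3. Among other members, ALD5 with PYK2 had 5.04 and 2.74 (9 contacts against 2.29), ADH3 with ALD4 had 1.01 and 3.19 (4 against 1.93), and ADH5 with HXK1 had 2.11 and 1.55 (5 against 2.71). Glycolytic with repressed bins were led by PDC1 with ADH2 at 2.77 and 3.07 (4 contacts against 1.37), ENO2 with the ALD2 and ALD3 bin at 2.04 and 2.75 (9 against 3.78), and ADH1 with PDC6 at 1.85 and 2.30 (11 against 5.31). Other members with repressed bins were led by TDH1 with PDC6 at 2.91 and 2.12 (17 contacts against 6.74), which joined 2 loci far from any chromosome end, followed by ALD4 with PCK1 at 2.31 and 2.49 (6 against 2.50) and TDH1 with ADH2 at 1.86 and 2.64 (7 against 3.13). Counting the 5 highest glycolytic pairs and the 3 highest of each other class, 18 of 20 were also above 1 in both maps in the balance between chromosomes only. The exceptions were PDC1 with PYK2 (4.42 and 0.68) and ADH3 with ALD4 (0.79 and 2.37). In that balance 20.3% of all pairs were above 1 in both maps. The 20 pairs were picked as high in the same contacts, so this count is not separate evidence for them.

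The 9 pairs of repressed bins were each seen in 1 to 13 contacts. ADH2, the gene that lets cells feed on ethanol, was in the 2 highest of them, with PCK1 at 1.73 and 2.83 (5 contacts against 2.21 expected) and with FBP1 at 1.98 and 2.37 (13 against 5.98). PCK1 with the ALD2 and ALD3 bin had 1.62 and 2.66 (5 against 2.36), and PDC6 with FBP1 had 1.66 and 1.68 (6 against 3.60). These 4 pairs were above 1 in both maps. PDC6 with the ALD2 and ALD3 bin had 0.72 and 1.54, FBP1 with that bin had 1.28 and 0.89, and PDC6 with PCK1 had 1.22 and 0.87, on both sides of 1. PDC6 with ADH2 had 0 and 0.82 (1 contact against 2.51), and PCK1 with FBP1, the 2 enzymes specific to gluconeogenesis, had 0.62 and 0 (1 contact against 3.17). With 1 to 3 contacts the counting interval is wide, and for PCK1 with FBP1 it ran from 0.00799 to 1.76.

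By gene, the pyruvate decarboxylase PDC1 had the highest mean contact with glycolytic bins of other chromosomes, at 1.80 in replicate 1 and 2.07 in replicate 2. TDH2 had 1.75 and 1.61, ENO2 had 1.68 and 1.64, and PGI1 had 1.66 and 1.41. Of these bins, PGI1 belongs to upper glycolysis, TDH2 and ENO2 to lower glycolysis, and PDC1 to fermentation. Most of the glycolytic bins belong to lower glycolysis or fermentation. ENO1, FBA1, TDH3 and CDC19 were also above 1 in both maps, between 1.21 and 1.34 on average. HXK2, ADH1, PFK1, TPI1, GPM1 and PFK2 lay on both sides of 1, and PFK1 had 1.67 and 0.67, the widest gap between maps. PGK1 alone was below 1 in both (0.66 and 0.89). Thus 8 of 15 glycolytic bins were above 1 in both maps (53.3%), against 39.4% of the 1053 kept bins that hold no member. In the balance between chromosomes only, 5 of 15 were above 1 in both (33.3%, against 20.9% of bins with no member). These were TDH2, PDC1, ENO2, PGI1 and TDH3, while ENO1 (0.95 and 1.30), FBA1 (1.06 and 0.99) and CDC19 (0.93 and 1.02) then lay on both sides of 1. As pooled contacts over expected, PDC1 (1.57), ENO2 (1.47) and TDH2 (1.36) were the highest glycolytic bins, PGK1 had 1.02, and PFK2 was the lowest at 0.95.

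Some other members reached the range of the highest glycolytic genes. PYK2, the minor pyruvate kinase, had 1.95 and 1.66 with glycolytic bins. ALD6, the main cytosolic aldehyde dehydrogenase, had 1.59 and 1.43, mitochondrial ADH3 had 1.58 and 1.43, and ALD5 had 1.37 and 1.54. These and PYC1 and TDH1 made 6 of 13 above 1 in both maps, and 5 of 13 were so in the balance between chromosomes only. HXK1, PYC2, PDC5, ADH4 and GLK1 were below 1 in both, down to 0.73 and 0.57 for GLK1. Of the 5 repressed bins none was above 1 in both maps, PDC6, FBP1 and ADH2 lay on both sides of 1, and PCK1 (0.50 and 0.97) and the ALD2 and ALD3 bin (0.67 and 0.64) were below 1 in both. In the balance between chromosomes only, TDH2 had 1.45 and 1.38, PDC1 1.29 and 1.49, ALD6 1.36 and 1.26, ENO2 1.25 and 1.14, and PYK2 1.31 and 1.10, while the ALD2 and ALD3 bin had 0.57 and 0.56.

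**Figure D3:**
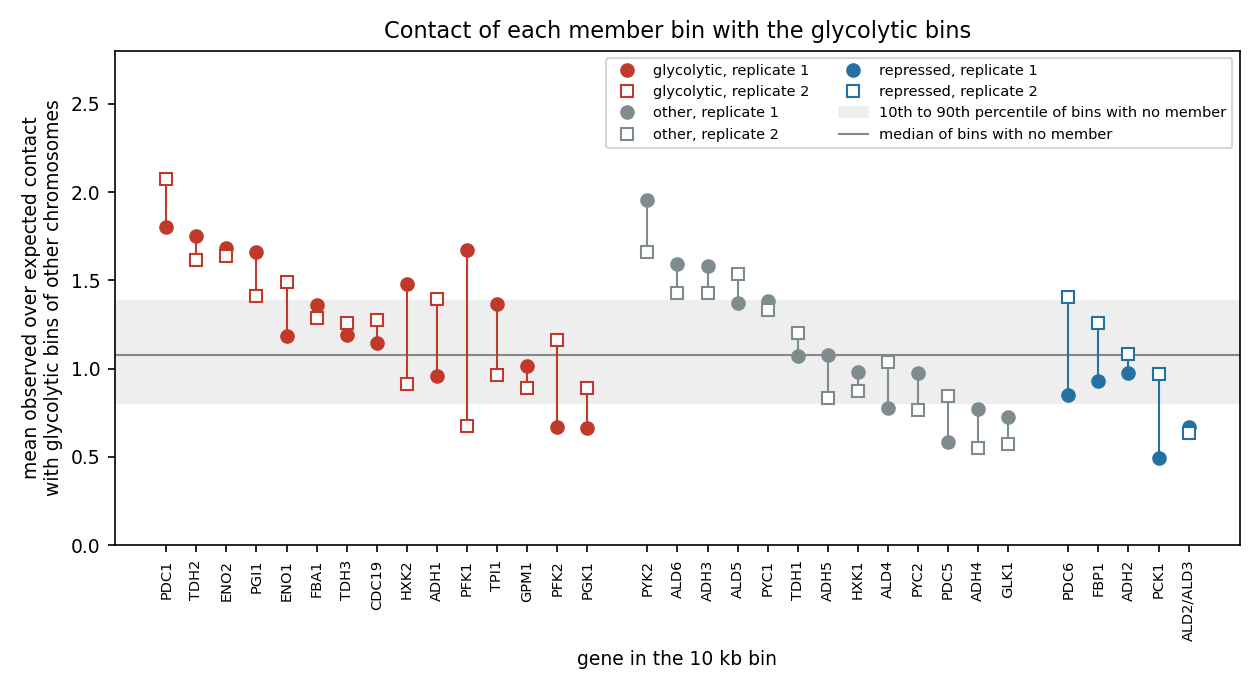
Mean O/E of each member bin with the glycolytic bins of other chromosomes, with replicate 1 as a filled circle and replicate 2 as an open square. The grey band spans the 10th to 90th percentile (0.81 to 1.39) and the line the median (1.08) of the 1053 kept bins with no member. PDC1, TDH2, ENO2, PGI1, PYK2, ALD6 and ADH3 lie above the band in both maps.

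In the deposited balance, the values around the glycolytic pairs fell off with distance. Averaged over windows reaching 70 kb to each side of the 98 pairs, the centre had 1.29, the 8 bin pairs touching it had 1.15, and pairs 30 kb or more away had 1.05. The centre over this surround was 1.25 in replicate 1 and 1.20 in replicate 2. For pairs of glycolytic with repressed bins the same ratio was 0.76 and 1.02, for pairs of repressed bins 1.14 and 1.50, and for all member pairs 1.07 and 1.06. Around the repressed pairs the 8 touching bin pairs had 0.90, below the centre at 1.36. In this balance glycolytic bins had 1.09 and 1.10 with all kept bins of other chromosomes. With contacts between chromosomes balanced alone, the 98 glycolytic pairs at the centre had 1.06 and 1.04. Whether the fall with distance holds in that balance was not tested.

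**Figure D4:**
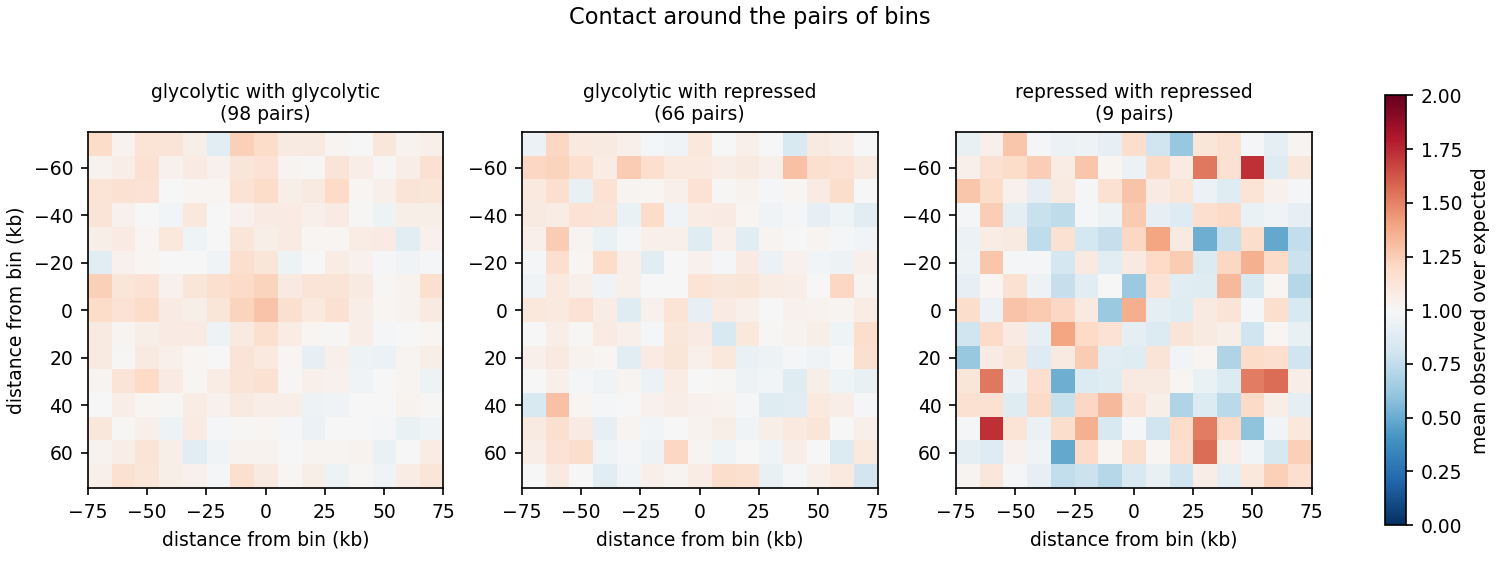
Mean O/E over 2 maps, in the deposited balance, in windows around pairs of bins on different chromosomes. Distance from each bin is in kb on both axes, and 1 is white. The centre of the glycolytic window stands at 1.29 amid neighbours at 1.15, while the window of the 9 repressed pairs has 1.36 at its centre and 0.90 in the 8 touching cells.

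Pairs of glycolytic bins at like and at unlike distance from their centromeres both lay above 1. The 13 glycolytic pairs whose distances to the centromere differ by at most 50 kb had 1.25 ± 0.0133. The 27 pairs that differ by 50 to 150 kb were lowest at 1.14 ± 0.129, and the 58 pairs that differ by over 150 kb had 1.37 ± 0.0960. For all kept pairs these groups had 1.05, 1.00 and 0.98. This split is given in the deposited balance only. With contacts between chromosomes balanced alone, the 98 glycolytic pairs together had 1.06 in replicate 1 and 1.04 in replicate 2. With the expectation taken over all pairs between chromosomes and no position classes, glycolytic pairs had 1.15 and 7 of 487 member pairs passed the exact Poisson test, against 1.21% of all pairs. The lowest adjusted p by that exact test were those of PGK1 with TDH2 (23 contacts against 4.14 expected, adjusted p = 1.06e-07) and CDC19 with PGK1 (16 against 3.81, adjusted p = 0.000661), whose bins lie 18.6 to 76.5 kb from their centromeres. Within the position classes PGK1 with TDH2 had 1.18 and 1.70 (23 contacts against 16.1 expected).

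Several members are copies of each other, and copies that keep identical stretches can exchange reads. Of 17 paralog pairs on different chromosomes, 2 were above 1 in both maps (11.8%, against 20.4% of all kept pairs), 3 were below 1 in both (17.6%, against 33.7%), and the mean O/E was 0.94 in replicate 1 and 1.42 in replicate 2 (64 contacts against 55.2 expected). The enolases ENO1 and ENO2 had 1.26 and 0.64 (6 contacts against 6.32), TDH2 and TDH3 had 0 and 3.55 (1 contact against 0.589), TDH1 and TDH3 had 0.63 and 1.37, ADH1 and ADH2 had 0.79 and 0.84, and PYC1 and PYC2 had 1.23 and 1.26. These 5 are the only member pairs between chromosomes whose bins share an identical 50-base word, and each had 6 contacts or fewer. Leaving them out left the glycolytic mean at 1.29 and the mean of all member pairs at 1.10.

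Of the paralogs with no such word, ADH1 and ADH3 had the most contacts over expected, 1.63 and 3.95 (10 against 3.61). ALD4 and ALD5 had 0.98 and 3.22, PDC1 and PDC6 had 0.76 and 2.89, and ADH2 and ADH5 had 2.93 and 0.65, and each of these 3 lay on both sides of 1. PDC5 with PDC6, ADH1 with ADH5, ADH3 with ADH5, PFK1 with PFK2, ALD4 with ALD6 and ALD5 with ALD6 averaged 0.68 to 1.29, each on both sides of 1. The hexokinases HXK1 and HXK2 had 0.38 and 0, and the pyruvate kinases CDC19 and PYK2 had no contact against 1.53 expected. On 1 chromosome, TDH1 and TDH2 lie 120 kb apart over the centromere of X and had 0.78 and 1.10. PDC1 and PDC5, 180 kb apart on XII, had 2.00 and 1.75 (both pairs share such words), and ADH2 and ADH3, 440 kb apart on XIII, had 0.97 and 2.11. The longest identical run within the coding sequences of ALD2 and ALD3, neighbours in the same bin, was 329 bases. A few such runs are shown from the reference, read along the coding strand with any DpnII site (GATC) in capitals. A read that lies wholly inside a run matches both copies. The TDH2 and TDH3 run of 173 bases is chrX:454155-454327 and chrVII:883284-883456, the ENO1 and ENO2 run of 112 bases is chrVII:1001477-1001588 and chrVIII:451877-451988, and the ADH1 and ADH2 run of 189 bases, with 1 DpnII site, is chrXV:160214-160402 and chrXIII:873957-874145. The study's methods give Hi-C reads longer than the ENO1 and ENO2 run, so no full-length read lies inside that run. How the authors treated reads with more than 1 match is not given in the sources used here.
TDH2 and TDH3: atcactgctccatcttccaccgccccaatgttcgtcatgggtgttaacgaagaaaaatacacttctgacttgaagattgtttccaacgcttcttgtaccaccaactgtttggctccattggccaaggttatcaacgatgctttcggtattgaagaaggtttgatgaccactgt
ENO1 and ENO2: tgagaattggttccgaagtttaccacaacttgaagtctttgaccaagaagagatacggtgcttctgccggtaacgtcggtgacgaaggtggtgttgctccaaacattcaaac
ADH1 and ADH2: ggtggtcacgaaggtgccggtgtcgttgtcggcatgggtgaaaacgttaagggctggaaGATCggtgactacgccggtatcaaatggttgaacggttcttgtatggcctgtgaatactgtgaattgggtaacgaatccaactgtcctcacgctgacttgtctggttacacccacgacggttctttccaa

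Contact with centromeres followed each gene's place on its arm. Relative to the mean between chromosomes, TDH2 had 4.99 ± 0.0348 and PGK1 3.83 ± 0.00219 with bins within 50 kb of other centromeres, and bins at under 50 kb from their own centromere had a median of 3.64. CDC19 (76.5 kb out) had 2.43, GLK1 2.28 and PDC1 1.57. At the other end FBP1, 724 kb from its centromere on the far side of the rDNA of XII, had 0.21 ± 0.0114, PFK2 had 0.25 and ADH2 had 0.26, against a median of 0.28 for bins over 300 kb out. ENO2 had 0.51 at 349 kb. The repressed genes ranged from 0.21 to 0.70 and the glycolytic genes from 0.25 to 4.99, as their distances do.

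With bins within 30 kb of other chromosome ends, the highest members were those nearest to an end. ADH4 (15 kb from its end) had 2.26 ± 0.180, HXK2 (25 kb) had 1.86 ± 0.0105, HXK1 1.77 ± 0.455 and PCK1 (31.8 kb) 1.63 ± 0.0469, and bins at under 30 kb from an end had a median of 1.86. CDC19, 75 kb from its end on the short chromosome I, had 1.52 ± 0.0513. The lowest was PDC5 at 0.58 ± 0.151. ADH2, 49.4 kb from its end, had 1.05 ± 0.112, and the median over all kept bins was 0.98.

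**Figure D5:**
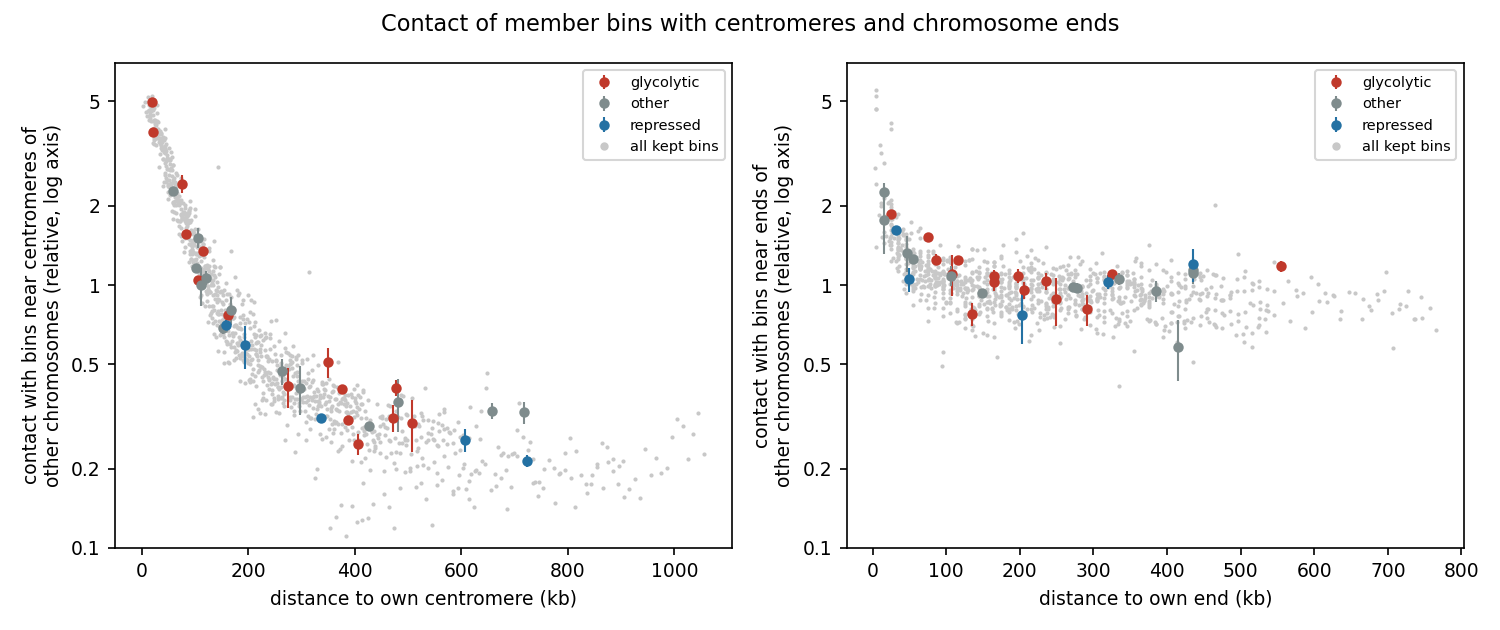
Contact of each member bin with bins within 50 kb of the centromeres (left) and within 30 kb of the ends (right) of other chromosomes, relative to the mean between chromosomes on a log axis, against its own distance to its centromere or end in kb. Coloured points are members (mean ± SD, n = 2 maps) and light grey points all 1086 kept bins. Members lie within the cloud of all bins at their distance, with TDH2 and PGK1 at the top left and FBP1 among the lowest members.

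Within chromosomes, the expectation is the mean of all kept pairs at the same distance. The 41 member pairs had a mean O/E of 1.31 (replicate 1) and 1.40 (replicate 2) and a median of 1.21, against 0.95 over all 44852 kept pairs. Above 1 in both maps were 19 pairs (46.3%, against 28.3%), and 4 pairs were at least 2-fold over expected in both (9.76%, against 2.17%). All 4 lay on chromosome VII, which holds 7 member bins and 21 of the 41 pairs. Its pairs had 1.63 and 1.54, and the 20 pairs of the other chromosomes had 0.97 and 1.24. On VII 15 of 21 pairs were above 1 in both maps (71.4%, against 30.9% of all kept pairs of VII). On the other chromosomes 4 of 20 were (20%), below the 28.3% of all kept pairs.

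The 4 pairs join the left end of VII to its right arm. ADH4 and ENO1, 990 kb apart, had 3.51 and 3.30 (10 contacts against 2.94 expected), ADH4 and PFK1 had 2.62 and 2.23, ADH4 and TDH3 had 2.07 and 2.18, and HXK2 and PDC6, 630 kb apart, had 2.19 and 2.53. The 3 pairs with ADH4 lie 870 to 990 kb apart, and all 231 kept pairs of VII that lie 850 kb or more apart had a mean of 1.83 in replicate 1 and 1.61 in replicate 2. A share of 14.7% of these 231 pairs was at least 2-fold over expected in both maps. HXK2 and PDC6 lie nearer to each other, and the 3347 pairs of VII that lie 200 kb or more apart had 1.16 and 1.14. Of these, 4.42% were at least 2-fold in both. This set also holds pairs much closer than 630 kb, so it is not matched to the distance of HXK2 and PDC6. Of the remaining pairs of ADH4 and HXK2 with the right arm, HXK2 with PFK1 lay on both sides of 1 and the others above it in both maps. HXK2 and ENO1 had 1.46 and 1.85, HXK2 and TDH3 1.13 and 2.53, ADH4 and PDC6 1.82 and 1.27, and HXK2 and PFK1 1.62 and 0. ADH4 and HXK2 sit in adjacent bins and had 1.31 and 1.32, from 1085 contacts against 825 expected. Within the right arm, PDC6 with ENO1 had 1.60 and 1.78, PDC6 with TDH3 1.30 and 1.11, PDC6 with PFK1 3.21 and 0.56, TDH3 with ENO1 1.64 and 1.21, TDH3 with PFK1 0.88 and 1.20, and PFK1 with ENO1, 30 kb apart, 1.07 and 1.15. Of these 6, PDC6 with PFK1 and TDH3 with PFK1 lay on both sides of 1. PYC1, nearer the centromere on the left arm, had 1.81 and 1.92 with PDC6, 1.47 and 1.20 with PFK1, 1.24 and 1.05 with ENO1, 0 and 1.25 with TDH3, 1.50 and 0.81 with ADH4, and 0.68 and 1.87 with HXK2.

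On the other chromosomes, pairs above 1 in both maps were GLK1 with PGK1, 80 kb apart across the centromere of III, at 1.48 and 1.92 (130 contacts against 76.7), FBA1 with PCK1 on XI at 1.83 and 2.16, PDC1 with PDC5, given above, and ADH3 with the ALD2 and ALD3 bin at 1.02 and 1.06. The other 16 pairs were below 1 in both maps or on both sides of it. On XI GPM1 had 0.96 and 0.65 with FBA1 and 0.57 and 0.60 with PCK1. On XII FBP1 had 0.91 in each map with PDC1 and 0 and 1.42 with PDC5. On XIII the ALD2 and ALD3 bin had 0.84 and 2.62 with ADH2 and 0.91 and 1.17 with PFK2, PFK2 had 0.85 and 1.58 with ADH2, and ADH3 had 0.25 and 1.02 with PFK2. None of the 6 pairs on XIII reached 2 in both maps. On II PGI1 had 1.24 and 0.85 with ADH5 and 1.23 and 0.67 with PYC2, and ADH5 with PYC2 had 0.74 and 1.12. On XV PYK2 and ALD4 had 0.90 and 0.95, ADH1 and PYK2 1.13 and 0.77, and ADH1 and ALD4 0.80 and 0.45.

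Short-range contact across the bins was lowest at 3 glycolytic loci and on average above the median of all bins at each repressed locus. For each bin, contacts of the 3 bins on its left with the 3 bins on its right were averaged over their expectation at the same distance, which was possible for 28 member bins. FBA1 had the lowest value, 0.74 in replicate 1 and 0.66 in replicate 2, and 3.18% of the 944 measured bins were lower. CDC19 had 0.81 and 0.75, PDC1 0.72 and 0.84, and ALD6 0.80 and 0.78. The 12 glycolytic bins spanned 0.70 to 1.42 with a median of 1.00, equal to that of all bins, and 5 were below 1 in both maps (41.7%, against 46.3% of all bins). The 5 repressed bins spanned 1.04 to 1.39 with a median of 1.24, and none was below 1 in both maps: PDC6 had 1.40 and 1.37, the ALD2 and ALD3 bin 1.30 and 1.26, PCK1 1.30 and 1.18, FBP1 1.08 and 1.06, and ADH2 1.12 and 0.95. The highest members were PDC5 at 1.67 and 1.77, ADH1 at 1.38 and 1.45, and GLK1 at 1.34 and 1.44. The ranges of the glycolytic and the repressed bins overlapped, and their difference was not tested.

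With the genome as a whole, 6 of 33 member bins were in a pair that passed the Poisson test, or 18.2%, against 21.1% of all kept bins. ADH4 and its neighbour HXK2 each passed with the first bin of chromosome I, which holds PAU8 and SEO1. ADH4 had 17.4 and 15.9 there (35 contacts against 2.09 expected, exact Poisson adjusted p = 3.62e-26), and HXK2 had 6.13 and 6.45 (22 against 3.50, adjusted p = 2.00e-07 by the exact Poisson test). CDC19 had 9.23 and 5.28 with the first bin of VI (15 against 2.03, exact Poisson adjusted p = 2.79e-05). These 3 pairs involve chromosome ends. The first bin of I was in 5 pairs that passed and the first bin of VI in 14. The partner bins given below were in 1 or 2. Passing with these 2 end bins was thus not particular to members. No member bin shared a 50-base word with its partner.

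PDC1 passed with chrXIV:270001-280000, which holds the chitin synthase gene CHS1, at 5.59 and 10.3 (16 contacts against 2.05, exact Poisson adjusted p = 3.98e-06), and with chrXVI:640001-650000, which holds the glutamine synthetase gene GLN1, at 2.79 and 2.58 (26 against 9.68, adjusted p = 0.0295). GPM1 passed with chrXII:820001-830000 at 5.84 and 2.47 (14 against 3.33, exact Poisson adjusted p = 0.0309), and the repressed gene ADH2 with chrII:470001-480000, which holds LYS2 and TEF2, at 3.18 and 6.78 (15 against 3.05, adjusted p = 0.00308). None of these partner bins holds a member.

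Genes that feed or govern the pathway were compared in the same way, as 32 genes in 29 further bins. Their mean O/E with glycolytic bins had a median of 1.23 and ranged from 0.79 to 1.75, and 18 of 29 were above 1 in both maps (62.1%), beside 39.4% of bins with no member. By mean O/E over pairs, the glucose transporter gene HXT2 was highest at 1.74 and 1.77, followed by the bin of the transporters HXT1 and HXT5 at 1.53 and 1.58 and the bin of HXT3 and HXT6 at 1.41 and 1.54. As pooled contacts the order differed, with 1.67 for HXT3 and HXT6, 1.43 for HXT1 and HXT5, and 1.18 for HXT2 (63 contacts against 53.2 expected). For glucose uptake and sensing the median over 7 bins was 1.24 with none below 1 in both maps, for regulators it was 1.33 over 10 bins with 7 above 1 in both, and for adjoining pathways 1.14 over 12 bins with 7 above 1 in both. Of the regulators, GCR1 had 1.05 and 0.82, GCR2 1.05 and 1.10, RAP1 1.47 and 1.33, and MIG1 1.46 and 1.29. SNF1 had 1.74 and 1.17, TYE7 1.31 and 1.45, REG1 1.39 and 1.26, and CAT8 1.08 and 1.36. HAP4 had 0.98 and 1.70, and ADR1, with 0.75 and 0.96, was below 1 in both maps. In the balance between chromosomes only, 11 of the 29 bins were above 1 in both maps (37.9%, against 20.9% of bins with no member), with a median of 1.03.

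The upstream sequence was searched for CTTCC, the core of the Gcr1 binding site, on both strands of the 500 bases before each start codon, counting overlapping matches separately. At least 1 match was found for 12 of 15 glycolytic genes (80%), 11 of 13 other members (84.6%) and 3 of 6 repressed genes (50%), against 66.1% of 6000 protein-coding genes. At least 3 matches were found for 4 glycolytic genes (26.7%), ADH1 with 5, PGK1 with 4, and GPM1 and CDC19 with 3 each, against 10.2% of all genes. The same was found for 2 of 13 other members (15.4%), HXK1 and PYC2, and 1 of 6 repressed genes (16.7%), ALD3. PDC1, TDH3 and HXK2 had none in this window, and their mean O/E with glycolytic bins was 1.94, 1.22 and 1.20. For the 4 glycolytic genes with at least 3 matches it was 1.18 (ADH1), 0.78 (PGK1), 0.95 (GPM1) and 1.21 (CDC19). Whether matches and contact go together was not tested. A match is only a match of letters in this window. The densest stretches are shown 5′ to 3′ toward the gene with the matches in capitals, for the 3 glycolytic genes with 3 matches close together and for the repressed gene ALD3. They are chrIII:137285-137324 (PGK1), chrI:71469-71534 (CDC19), chrXV:160766-160832 on the minus strand (ADH1) and chrXIII:601176-601291 on the minus strand (ALD3).
PGK1: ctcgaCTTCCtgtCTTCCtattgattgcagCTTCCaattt
CDC19: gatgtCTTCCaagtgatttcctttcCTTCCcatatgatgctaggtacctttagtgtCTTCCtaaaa
ADH1: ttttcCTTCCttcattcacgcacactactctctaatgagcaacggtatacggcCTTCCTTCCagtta
ALD3: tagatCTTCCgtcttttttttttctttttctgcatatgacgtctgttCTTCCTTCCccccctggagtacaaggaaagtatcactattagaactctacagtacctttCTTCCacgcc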

How the data were processed

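The authors mapped the Hi-C reads to sacCer3 with HiC-Pro, per the labels, and deposited 1 matrix per replicate. The deposited signal was made by the authors by iterative correction (ICE) of the contacts of each 10 kb bin with each other bin, with no scaling between replicates. The sources used here do not state the read filters. Genes were placed with the R64 annotation, which has the chromosome lengths of the deposited bins.

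Whole contacts were recovered by undoing the bin factors, and every value came out whole to within 0.01. Bins were kept where a share of at least 0.5 of partners on other chromosomes had a value in both maps. Between chromosomes, expected values were means over all kept pairs in the same position classes. These were set by centromere distance, with cuts at 20, 50, 100, 200, 300 and 500 kb, and by whether a bin lies within 30 kb of an end. Single pairs were tested by an exact one-sided Poisson test of the pooled contacts, adjusted by Benjamini-Hochberg over all kept pairs, which covers counting error only. Intervals are exact Poisson 95% intervals. Scripts used Python 3.11.15, NumPy 2.4.6 and SciPy 1.17.1 and were tested on simulated data.

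The text names every member, the 5 highest and 3 lowest glycolytic pairs (ties by the larger expectation) and the 3 highest pairs of each other class, all with both maps above 1 or both below it, every repressed, paralog and same-chromosome pair, and the 3 highest related bins. It also names every pair past the Poisson test. The regulators beyond the highest 3 related bins, and the pair PGK1 with TDH2, were named after their values were seen. Members, classes and lists were chosen with earlier results of these data known. The planned match to bins at like distances was made through the expectation, and no lists were drawn. Alternatives were each replicate alone, no filter on bins, a balance between chromosomes only, no position classes, pairs sharing an identical 50-base word left out, and pooled contacts.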

Additional observations from a re-analysis of the deposited data

How the results depend on the processing

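Over 9 results and 49 alternatives, 35 values moved less than the spread between the 2 maps or, for counts, less than 1.5 times. With 2 maps, the mean of either replicate alone always lies within that spread of the mean over both. For the means, leaving out a replicate could therefore not count as a move. Of the means, that of all members went below 1 in the balance between chromosomes only, and that of glycolytic with repressed pairs lay on both sides of 1 between replicates. Leaving out either replicate, the mean O/E was 1.09 to 1.10 for all members, 1.28 to 1.30 for glycolytic pairs, 1.20 to 1.52 for repressed pairs, 0.78 to 1.06 for glycolytic with repressed pairs and 1.31 to 1.40 within chromosomes. The number of pairs at least 2-fold over expected was 63 to 70 in a single map, against 18 in both. The median spanning contact of glycolytic bins was 0.998 to 1.02 and the median centromere contact of members 0.461 to 0.555 (added after seeing the data).

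The balance between chromosomes only lowered the mean to 0.97 for all members and 1.05 for glycolytic pairs, and left 8 pairs at least 2-fold over expected in both maps. With no filter on bins the means were 1.11 and 1.33, with no position classes 1.07 and 1.15, and as pooled contacts 1.09 and 1.22, in the same order. Pooled contacts gave 1.23 within chromosomes. With no position classes 7 member pairs passed the Poisson test in place of 0. Under the other alternatives 0 pairs passed it.

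No paired analysis was possible because the maps used here are of 1 group. With 2 maps and about 3.27 expected contacts at the median member pair, single pairs are limited by counting error.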
